A study of Mus musculus with 2 samples.

Results

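The Ebf genes and the zinc finger genes Zfp423 and Zfp521 were described in total RNA of the hindbrain of newborn mice. The 6 genes Ebf1, Ebf2, Ebf3, Ebf4, Zfp423 and Zfp521 were chosen by name, not by their values, out of 43346 mouse genes with a row in the deposited tables, and they carried 29 annotated transcripts. Hindbrain comprises the cerebellum, pons and medulla. It was taken at postnatal day 0 from healthy mice of strain B6NTac;B6NCrl/Lap, males and females pooled, with no treatment, transgene or deletion named. There were 2 stranded paired-end libraries of RNA over 200 nt after removal of ribosomal RNA, and they form 1 group. Replicate 1 was a pool of 15 mice and replicate 2 a pool whose size is not given. The labels give both libraries the same donor identifier, and part of the difference between them may be technical. With 1 group of 2 libraries an exact sign-flip test cannot go below p = 0.5, and no p-values are given. In whole tissue, fewer cells of a type and less RNA per cell cannot be told apart.

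Ebf proteins (early B cell factors, also called Olf or COE factors) are transcription factors that bind a palindromic DNA site as dimers, through an amino-terminal DNA-binding domain followed by an immunoglobulin-like domain and a helix-loop-helix. Ebf1 is known as a determinant of B lymphocytes, Ebf2 of brown fat cells and of migrating Purkinje cells, and Ebf3 of early-born neurons. In the newborn cerebellum Ebf2 is also known to hold back zebrin II, encoded by Aldoc, in a subset of Purkinje cells. Zfp423 (also called OAZ) and its paralogue Zfp521 are large nuclear proteins with many C2H2 zinc fingers. They bind Ebf proteins and can oppose their activity, and Zfp423 also binds the Smad proteins that carry bone morphogenetic protein (BMP) signals. A short motif at the amino-terminal end of Zfp521 and of several other zinc finger repressors recruits the NuRD corepressor, a complex of chromatin remodelers and histone deacetylases. Loss of Zfp423 in mice reduces the cerebellar vermis.

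The Ebf genes share an exon plan, and their transcripts differ at a few splice sites, shown here because the transcript shares given later turn on them. Counting exons 2 to 15 of Ebf1-201, Ebf2-202, Ebf3-204 and Ebf4-201, 9 of 14 exons had the same length in all 4 genes. They were exons 2 to 7, of 157, 64, 56, 74, 69 and 82 nt in that order, and exons 10 to 12. Exons 8, 9, 13, 14 and 15 differed. All sequences are from genome build mm10, written 5′ to 3′ on the gene's strand, with exon limits from GENCODE release M21.
Ebf1 exon 8, chr11:44883814-44883955 (plus strand), 142 nt, where the capitals mark the last 24 nt, kept in Ebf1-201 and Ebf1-202 and left out of Ebf1-203: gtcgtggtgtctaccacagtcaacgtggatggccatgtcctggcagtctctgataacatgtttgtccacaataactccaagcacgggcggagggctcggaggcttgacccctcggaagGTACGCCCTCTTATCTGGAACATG
Ebf1 exon 9 start, chr11:44907904-44907933 (plus strand), where the capitals mark 3 nt present in Ebf1-202 and Ebf1-203 and absent from Ebf1-201: CAGctactccctgtatcaaagccatcagcc
Ebf2 exon 9 start, chr14:67389616-67389645 (plus strand): ctacaccctgcatcaaagccatcagcccaa
Ebf3 exon 9 start, chr7:137225857-137225886 (minus strand): ccactccgtgtatcaaggctatcagcccca
Ebf4 exon 9 start, chr2:130359771-130359800 (plus strand), where the capitals mark the first 3 nt: CTGccaccccctgcatcaaggccatcagcc
Ebf3 exon 15, chr7:137198492-137198689 (minus strand), 198 nt, where the capitals mark the first 108 nt, left out of Ebf3-201: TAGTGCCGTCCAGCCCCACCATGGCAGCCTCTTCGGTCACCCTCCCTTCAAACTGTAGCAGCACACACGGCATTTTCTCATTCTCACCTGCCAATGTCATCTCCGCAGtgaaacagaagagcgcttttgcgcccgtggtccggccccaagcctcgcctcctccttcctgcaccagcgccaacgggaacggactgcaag
Ebf4 exon 15, chr2:130365460-130365657 (plus strand), 198 nt, where the capitals mark the first 116 nt, left out of Ebf4-206: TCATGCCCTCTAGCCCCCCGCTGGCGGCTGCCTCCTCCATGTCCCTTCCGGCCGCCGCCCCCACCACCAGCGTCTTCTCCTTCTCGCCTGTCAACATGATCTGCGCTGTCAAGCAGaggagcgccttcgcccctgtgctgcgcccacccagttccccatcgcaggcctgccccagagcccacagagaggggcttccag

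Exon 8 of Ebf2-202, Ebf3-204 and Ebf4-201 was 118 nt long, without a 24-nt end, as it is in Ebf1-203. Leaving out 24, 3 or 108 nt keeps the reading frame, and the coding lengths followed: 1776 nt in Ebf1-202, 1773 nt in Ebf1-201 and 1752 nt in Ebf1-203, and 1761 nt in Ebf3-204 against 1653 nt in Ebf3-201. Leaving out 116 nt does not keep the frame, and Ebf4-206 is annotated as a target of nonsense-mediated decay, the pathway that removes messages with an early stop. Exon 9 was 134 nt long in Ebf4-201 and in the longer Ebf1 form, and 131 nt in Ebf2-202, Ebf3-204 and Ebf1-201.

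**Figure D1:**
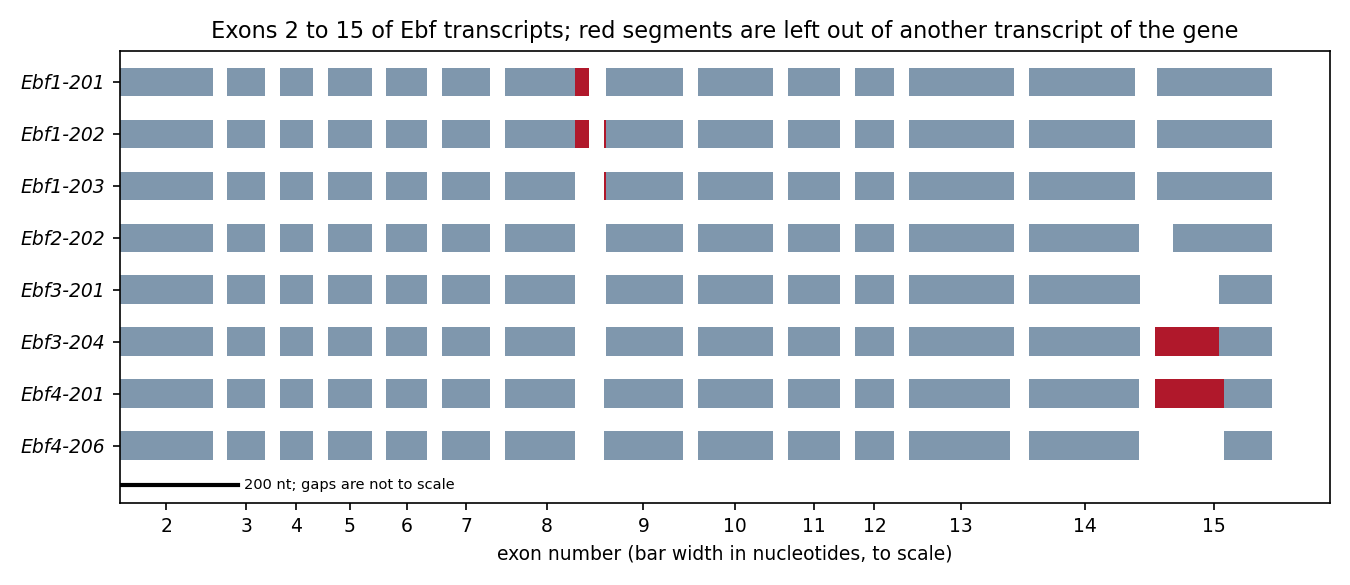
Exons 2 to 15 of 8 Ebf transcripts, with bar widths in nucleotides to scale and exon numbers on the x axis. Red segments are the 24-nt end of Ebf1 exon 8, the 3-nt start of Ebf1 exon 9, the 108-nt start of Ebf3 exon 15 and the 116-nt start of Ebf4 exon 15, each left out of another transcript of that gene, and exons 2 to 7 and 10 to 12 have equal widths in all rows.

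Zfp423 has 3 main coding transcripts that start in different places and give the protein different amino-terminal ends. Zfp423-202 starts at chr8:87959595, Zfp423-201 at chr8:87895735 and Zfp423-203 at chr8:87804439, all on the minus strand. The coding parts of their first exons, a second exon found in Zfp423-202, an exon that Zfp423-203 lacks and the place where coding starts in Zfp423-203 are shown, since the 3 transcripts, whose shares are given later, encode different ends.
Zfp423-202 first exon, coding part, chr8:87959196-87959235, where the capitals mark the start codon: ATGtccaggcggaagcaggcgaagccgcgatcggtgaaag
Zfp423-202 second exon, chr8:87904489-87904548: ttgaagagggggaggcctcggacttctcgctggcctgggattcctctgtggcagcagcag
Zfp423-201 first exon, coding part, chr8:87895671-87895707, where the capitals mark the start codon: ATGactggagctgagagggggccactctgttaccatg
Zfp423 exon present in Zfp423-201 and Zfp423-202 and absent from Zfp423-203, chr8:87859284-87859484, 201 nt: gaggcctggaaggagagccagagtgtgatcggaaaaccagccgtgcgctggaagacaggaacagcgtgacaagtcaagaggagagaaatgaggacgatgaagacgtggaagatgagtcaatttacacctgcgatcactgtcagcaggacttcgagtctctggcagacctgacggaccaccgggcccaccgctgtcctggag
Zfp423-203 coding start, chr8:87783280-87783339, inside the large exon of 3215 nt that encodes most of the zinc fingers, with the start codon in capitals: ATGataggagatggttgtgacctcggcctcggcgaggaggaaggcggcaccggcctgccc

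The start codon of Zfp423-203 lies 74 nt into that large exon. Over the first 36 coding nt, aligned without gaps, Zfp423-202 was identical to Zfp521-201 at 26 positions (72.2%), Zfp423-201 at 16 (44.4%) and Zfp423-203 at 6 (16.7%). Over the whole coding sequence the paralogues Zfp423-201 and Zfp521-201 were 71.7% identical, and they share the lengths of 3 internal exons, 85, 132 and 116 nt. Among the Ebf genes, Ebf1-202 and Ebf3-204 had the highest coding identity (79.4%) and Ebf2-203 and Ebf4-201 the lowest (70.7%). No pair shared a run as long as a sequencing read, and the longest identical runs were 27 nt between Ebf genes and 35 nt between the zinc finger genes.

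RefSeq promoter windows (build GRCm38.p6, 250 bases before to 50 after a start) were found for Ebf1, Ebf3, Ebf4 and Zfp423, 6 windows in all. The Ebf1 windows are set at chr11:44618100 and chr11:44620228, where no transcript of release M21 starts. The coding Ebf1 transcripts start at chr11:44617317, and the start of Zfp423-201 has no window. Both Zfp423 windows are given up to the start, since the transcripts annotated from the distal and the downstream start both had estimated counts. Use of the starts themselves was not measured.
Zfp423 before the distal start, chr8:87959596-87959845 (minus strand): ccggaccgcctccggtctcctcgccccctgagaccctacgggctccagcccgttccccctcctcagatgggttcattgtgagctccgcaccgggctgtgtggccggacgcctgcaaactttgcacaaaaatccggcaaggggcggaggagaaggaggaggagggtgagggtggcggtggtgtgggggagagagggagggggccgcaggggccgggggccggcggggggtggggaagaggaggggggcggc
Zfp423 before the downstream start, chr8:87804440-87804689 (minus strand): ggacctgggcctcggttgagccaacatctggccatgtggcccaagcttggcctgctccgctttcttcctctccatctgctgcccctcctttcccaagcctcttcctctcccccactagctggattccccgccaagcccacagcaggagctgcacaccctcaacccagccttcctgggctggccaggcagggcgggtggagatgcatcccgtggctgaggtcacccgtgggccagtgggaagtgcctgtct
The full windows of 300 nt held 21 CpG dinucleotides at the distal start and 7 at the downstream start, against a median of 7 over all 32851 windows, at similar G and C content (65.7% and 65.0%). The windows of Ebf3 (46 CpG) and Ebf4 (35 CpG) held more. The palindromic Ebf site, read as TCCC, any 2 bases and GGGA, which is the same on both strands, was in 297 of 32851 windows (0.904%) and in 0 of the 6 windows of these genes.

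Replicate 1 had 54313140 expected counts in all and replicate 2 had 77142270. Expected counts are estimated fragment counts, and TPM, the length-corrected abundance, divides them by transcript length and scales every library to the same sum. Nuclear protein-coding genes held 28.1% of the TPM in replicate 1 and 19.3% in replicate 2, and a typical coding gene had a TPM 1.44-fold higher in replicate 1 (median over 11725 genes). The tissue label was checked against marker lists: 7 of 7 anterior Hox genes, which mark hindbrain, had at least 1 TPM in both libraries, led by Hoxa5 (24.1 ± 4.97 TPM, n = 2), as did 5 of 5 neuron genes. Of 7 forebrain transcription factors 1 did, Neurod6 (5.39 ± 1.96 TPM). Over all nuclear coding genes the share with at least 1 TPM in both libraries was 54.6%.

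Of the 4 Ebf genes, Ebf3 had the highest level and Ebf4 the lowest in both libraries. Ebf3 lies on chromosome 7 (mm10 chr7:137193673-137314445, minus strand). It had 11564 expected counts in replicate 1 and 15252 in replicate 2, or 31.61 and 21.44 TPM, a mean of 26.5 ± 7.19 TPM (SD, n = 2). That placed Ebf3 at rank 1703 of 21461 coding genes, in the top 7.94%.
Ebf1 (chr11:44617317-45008091, plus strand) had 6599 and 9417 counts, or 16.38 and 12.87 TPM (14.6 ± 2.48). Ebf2 (chr14:67233292-67430918, plus strand) had 2677 and 3813 counts, or 7.50 and 5.50 TPM (6.50 ± 1.41). Ebf4 (chr2:130295169-130370481, plus strand) had 1014 and 1496 counts, or 5.21 and 3.69 TPM (4.45 ± 1.07). In all of them the TPM was higher in replicate 1, as for the typical coding gene. The ranges of the 4 genes did not overlap, and the nearest were Ebf2 in replicate 2 and Ebf4 in replicate 1, at 5.50 and 5.21 TPM.
Ebf messages summed to 60.7 and 43.5 TPM. Ebf3 made up 50.7 ± 1.97% of that sum, Ebf1 28.3 ± 1.84%, Ebf2 12.5 ± 0.204% and Ebf4 8.53 ± 0.071%. These proportions, taken within a library, moved by at most a few percentage points between the libraries.

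Both zinc finger partners were at levels between Ebf3 and Ebf2. Zfp423 (chr8:87661810-87959595, minus strand) had 7111 and 9194 counts, or 20.87 and 14.10 TPM, a mean of 17.5 ± 4.79 TPM. Zfp521 (chr18:13687013-13972787, minus strand) had 7848 and 12312 counts, or 16.41 and 12.72 TPM (14.6 ± 2.61). Replicate 1 was higher for both, and the ranges of these genes overlapped. Of 394 coding genes named Zfp with a number, 265 (67.3%) had at least 1 TPM in both libraries and the median was 2.39 TPM, and Zfp423 ranked 11 and Zfp521 18 among them. Zfp423 made up 54.3 ± 2.41% of the TPM of the pair. The summed TPM of the Ebf genes was 1.63-fold that of Zfp423 and Zfp521 in replicate 1 and 1.62-fold in replicate 2.

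**Figure D2:**
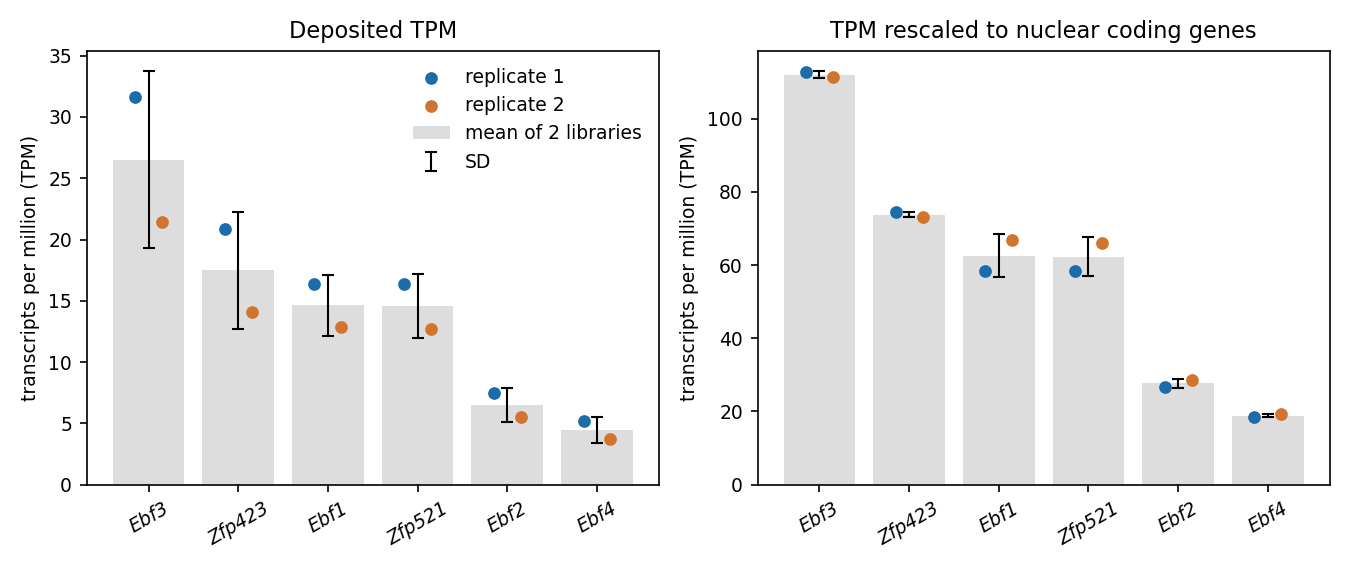
Levels of the 6 genes in each library, in deposited TPM (left) and in TPM rescaled so that nuclear coding genes sum to the same total in both libraries (right). Points are libraries, bars the mean of 2 and error bars the SD. The deposited values of replicate 1 are above those of replicate 2 for every gene, while after rescaling Ebf3 had 113 and 111, Ebf1 58.4 and 66.9, and Ebf4 18.6 and 19.2 TPM.

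All 6 genes had at least 1 TPM in both libraries, where 54.6% of nuclear coding genes did (11725 of 21461, with a median of 2.07 TPM over all coding genes and 8.11 TPM over those at 1 TPM or more). The counts of all 6 genes were whole numbers within 0.005 in both libraries. GENCODE release M21 places 6 other measured genes on the opposite strand inside Ebf1 (1 gene) and Ebf2 (5 genes), and 0 of these had any count.

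The order of the levels was Ebf3, Zfp423, Ebf1, Zfp521, Ebf2 and Ebf4 by mean TPM. It was examined by log2 ratios taken within each library, in which the factor shared by all TPM of a library cancels, and a pair was called apart where both libraries gave the same sign and the mean exceeded 2 SD. By that rule 12 of 15 pairs were apart. Ebf3 exceeded Zfp423 by 0.60 ± 0.004 on the log2 scale (1.51-fold and 1.52-fold), Zfp521 exceeded Ebf2 by 1.17 ± 0.056 (2.25-fold) and Ebf2 exceeded Ebf4 by 0.55 ± 0.035 (1.46-fold).
The other 3 pairs were those among Zfp423, Ebf1 and Zfp521. Zfp423 over Ebf1 was 0.35 in replicate 1 and 0.13 in replicate 2 (mean 0.24 ± 0.154), and Zfp423 over Zfp521 was 0.35 and 0.15 (mean 0.25 ± 0.140). Ebf1 and Zfp521 differed by 0.01 ± 0.014, with the sign turning between the libraries. These middle levels were therefore not apart by the rule of 2 SD. Zfp423 was nevertheless the higher in both libraries against Ebf1 and Zfp521, by means larger than 1 SD.

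The libraries were compared directly by expected counts scaled with TMM, which matches libraries on the bulk of their genes. The log2 ratio of replicate 2 to replicate 1 was 0.00 for Ebf1 and Ebf2, 0.05 for Ebf4, -0.11 for Ebf3, -0.14 for Zfp423 and 0.14 for Zfp521. None of the 6 genes was past 2-fold in either direction, where 14.9% of genes averaging 10 counts or more were (2633 of 17632). Few genes with counts like these were past it: inside the range of mean counts of the 6 genes (1255 to 13408) 17 of 7273 genes were (0.234%), and the median absolute log2 ratio was 0.13. Counting error alone gives a 95% interval of -0.14 to -0.08 for Ebf3 and 0.10 to 0.18 for Zfp521. Ratios larger in size than that of Zfp423 were found for 47.2% of genes in that range of counts, and larger than those of Ebf3 and Zfp521 for 56.6% and 46.7%.

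**Figure D3:**
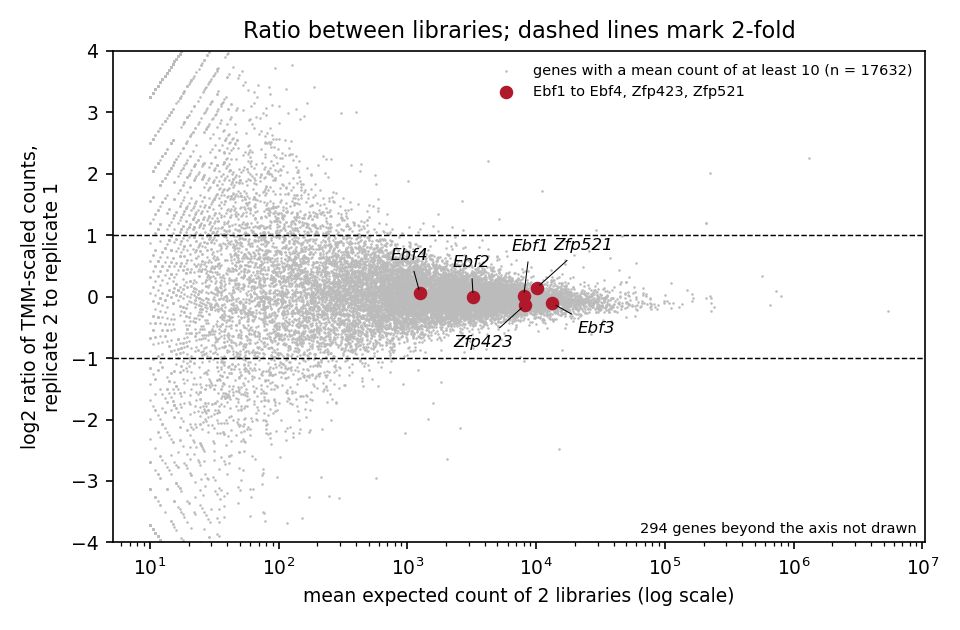
The log2 ratio of TMM-scaled counts of replicate 2 to replicate 1 (y axis) against the mean expected count (x axis, log scale) for 17632 genes, with 294 beyond the drawn range left out. The 6 genes, in red, lie between -0.14 and 0.14, inside the dashed lines that mark 2-fold.

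The genes were spread over several transcripts, except Zfp521. The deposited shares give each transcript's percent of its gene's TPM, and 20 of the 29 transcripts had a share of at least 5% in either library, while 7 had 0 counts in both. Fragments were 315 and 297 nt long on average, so a transcript's share is an estimate from the segments that set it apart.

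Ebf1 RNA was mostly of forms that keep the 24-nt end of exon 8. Together Ebf1-201 and Ebf1-202 held 89.9% of Ebf1 TPM in replicate 1 and 80.0% in replicate 2, and Ebf1-203, which lacks that end, held 2.51% and 12.3%. The longest form, Ebf1-201, had 70.5% and 52.3%, and Ebf1-202 had 19.4% and 27.7%. The order of the 3 coding forms was the same in both libraries.
The 3 nt at the start of exon 9 were in 21.9% and 40.0% of Ebf1 TPM. Ebf1-203 had 0.41 and 1.59 TPM, and its deposited intervals, whose level is not stated, ran from 0.240 to 0.648 TPM in replicate 1 and from 1.31 to 1.89 TPM in replicate 2. These annotated forms also differ in their last exon, of 3375 nt in Ebf1-201, 813 nt in Ebf1-202 and 279 nt in Ebf1-203, so their shares count the splice sites and the 3′ ends together. A noncoding form that ends in the intron after exon 6, Ebf1-207, held 7.03% and 7.35%.

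Ebf2 coding transcripts all encode the same coding length of 1725 nt and together held 97.02% and 96.36% of Ebf2 TPM. Ebf2-203 led with 70.4% and 70.7%. Ebf2-202 had 13.3% and 24.1%, and Ebf2-201 had 13.4% and 1.52%, so the order of these forms changed between the libraries. For Ebf2-201 the deposited intervals, 0.773 to 1.23 TPM and 0.039 to 0.147 TPM, did not overlap. The differences between these forms lie outside the coding part.

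Ebf3 RNA was divided between both forms of exon 15. Ebf3-201, which lacks the first 108 nt of that exon, held 52.0% of Ebf3 TPM in replicate 1 and 41.8% in replicate 2. Ebf3-202, Ebf3-203 and Ebf3-204, which keep them, summed to 48.0% and 58.2%. Which form was in the majority therefore differed between the libraries, and the mean shares, 46.9 ± 7.21% and 53.1 ± 7.21%, were not separated by more than their spread.
Among the forms with the long exon, Ebf3-204 had 24.55% and 23.96%, Ebf3-203 12.5% and 27.5%, and Ebf3-202 10.9% and 6.73%. The lengths of Ebf3-201 and Ebf3-202 differ between the deposited tables and release M21 (4886 against 4838 nt and 5021 against 3736 nt), so their structures here are those of a later release.

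Ebf4, the lowest of the family, had part of its RNA in forms annotated as noncoding or as targets of decay. The retained-intron form Ebf4-205 and the decay form Ebf4-206, which lacks the first 116 nt of exon 15, together held 19.76% and 28.05% of Ebf4 TPM. Ebf4-206 alone had 12.1% and 15.1%. Ebf4-201 led with 73.3% and 48.4%, and Ebf4-203, which starts upstream at chr2:130295169 and has a coding length of 2088 nt, had 6.96% and 23.5%. The Ebf4 shares rest on the fewest counts of the 6 genes, 79.2 and 385.5 expected counts for Ebf4-203.

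The leading Zfp423 transcript in both libraries was the one annotated from the downstream start. Zfp423-203, which starts there and lacks the 201-nt exon, held 58.4% of Zfp423 TPM in replicate 1 and 48.4% in replicate 2 (53.4 ± 7.12%). Zfp423-201 and Zfp423-202, which keep that exon, summed to 41.6% and 46.2%. The downstream form and the sum of the forms with that exon were not separated by more than their spread.
Zfp423-201 had 24.7% and 35.9%, and Zfp423-202, whose coding start is the most like that of Zfp521, had 16.9% and 10.3%, or 3.52 and 1.45 TPM. A short noncoding form, Zfp423-204, had 0 counts in replicate 1 and 11.4 in replicate 2, where its length of 386 nt turned them into 5.41% of the TPM. Its share of the expected counts there was 0.124%. Zfp521 had a single transcript in the deposited tables, Zfp521-201, with a coding length of 3933 nt and a whole length of 6152 nt there against 6206 nt in release M21.

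**Figure D4:**
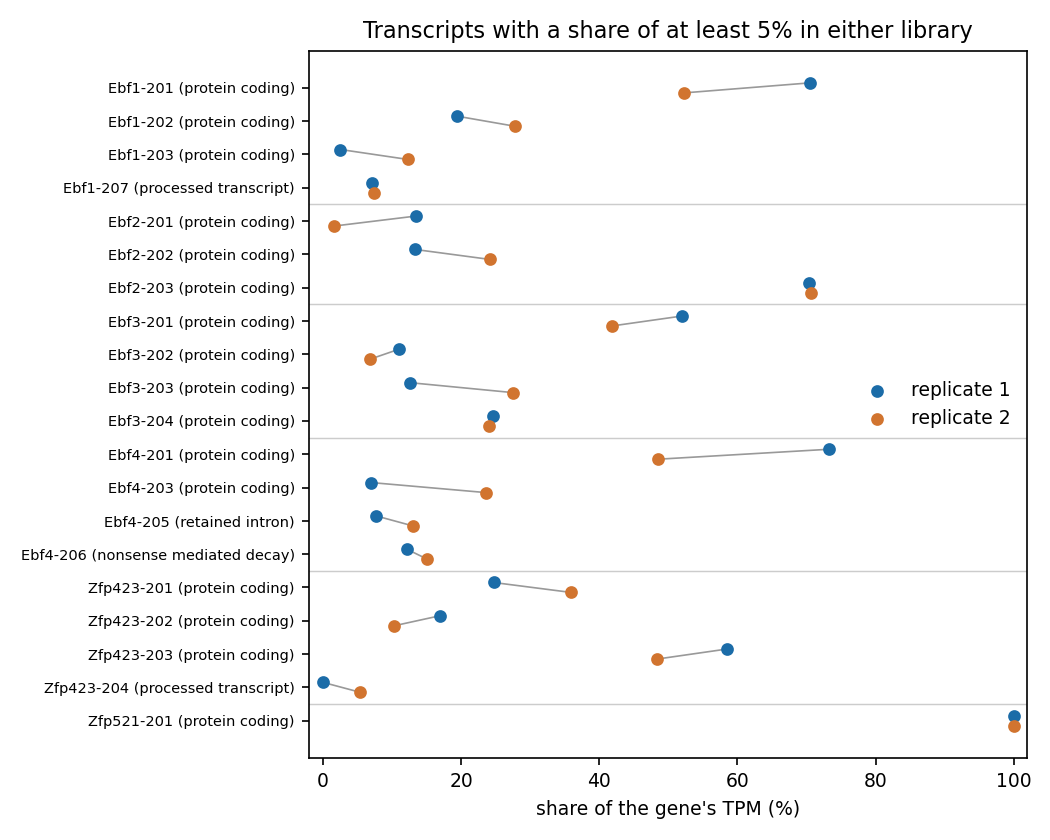
Share of the gene's TPM (x axis, percent) for the 20 transcripts with at least 5% in either library, with 1 point for each library. The leading transcript was the same in both libraries for every gene, and the shares of Ebf4-201 lie farthest apart, at 73.3% and 48.4%.

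The deposited tables also give each gene's transcript length weighted by these shares. It was lower in replicate 2 for 4 of the 5 genes with several transcripts, with 5234 and 4723 nt for Ebf1, 4474 and 4243 nt for Zfp423, 4674 and 4492 nt for Ebf2 and 4782 and 4601 nt for Ebf3, and higher for Ebf4, with 2690 and 2747 nt. Of 9966 coding genes whose length differed between the libraries, 52.9% were lower in replicate 2.

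Most genes listed for the corepressor and signaling pathways of Zfp423 and Zfp521 were detected, where 54.6% of all nuclear coding genes were. All 14 NuRD subunits had at least 1 TPM in both libraries, with a median of 14.4 TPM. Chd3, a remodeling ATPase, led with 59.9 ± 16.2 TPM, followed by the deacetylase Hdac2 (25.8 ± 7.90) and the histone-binding Rbbp7 (25.1 ± 9.00), and Mbd2 was lowest (4.88 ± 1.74). The NuRD median was close to the median of the 6 genes, 14.6 TPM.
All 7 BMP receptors and Smads were detected too, with a median of 12.5 TPM. They ran from Smad4 (33.3 ± 5.42 TPM), the shared partner Smad, Smad1 (16.3 ± 3.82) and Bmpr2 (13.6 ± 3.01) down to Smad9 (1.33 ± 0.049). Of 7 BMP-responsive genes 6 were detected, led by the inhibitors of helix-loop-helix factors Id3 (61.5 ± 6.41), Id2 (50.3 ± 6.68) and Id1 (38.7 ± 1.22), and Msx2 was lowest (0.915 ± 0.445). In these lists 0 genes were past 2-fold between the libraries, where 14.9% of all genes averaging 10 counts or more were.

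Of 11 other reported partners and pathway genes of Zfp423, 10 were detected, with a median of 4.97 TPM, beside 54.6% of all nuclear coding genes. The highest were the Notch target Hes5 (37.7 ± 5.33 TPM), the receptor Notch1 (17.8 ± 4.56) and the DNA damage sensor Parp1 (17.6 ± 4.29). The lowest was Cep290, which encodes a protein of the cilium base, with 0.58 and 0.17 TPM. It was the 1 gene of this list past 2-fold, with a log2 ratio of -1.27 between the libraries. Among all genes averaging 10 counts or more, 14.9% were past 2-fold. All 5 early neural genes linked to Zfp521 were detected, from Pax6 (25.4 ± 0.976), Sox2 (15.4 ± 5.85) and the acetyltransferase Ep300 (11.9 ± 3.27) to Sox3 (1.76 ± 0.849).

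Most genes listed for neurons in which Ebf genes are known to act were detected, where 54.6% of all nuclear coding genes were. All 13 Purkinje cell genes were detected, with a median of 11.9 TPM, led by Aldoc (190.2 ± 46.2 TPM), the zebrin II gene, which astrocytes also express, Pcp2 (27.1 ± 0.849) and Bhlhe22 (17.1 ± 6.69), with Igf1 the lowest (2.46 ± 0.997). Of 6 Cajal-Retzius genes, which mark early-born neurons that secrete reelin, 5 were detected. Reln (47.1 ± 9.33), Calb2 (13.3 ± 1.20) and Lhx1 (11.9 ± 2.73) led, while Trp73, a defining gene of those cells, had 0.24 and 0.23 TPM. Lhx1 and Lhx5 are in both lists, and whether Cajal-Retzius cells were present was not tested.

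Genes listed for other cell types known to express Ebf genes were detected in part, beside the 54.6% of all nuclear coding genes. Of 10 pericyte and smooth muscle genes 7 were detected, led by Vtn (31.8 ± 15.3 TPM), Rgs5 (10.3 ± 3.63) and Cspg4 (8.63 ± 2.55), with Myh11 lowest (0.14 ± 0.042). Their summed level was 84.8 TPM in replicate 1 and 47.4 in replicate 2, while a typical coding gene was 1.44-fold higher in replicate 1. Vtn alone gave 42.63 and 20.97 TPM of these sums. By TMM-scaled counts the log2 ratio of replicate 2 to replicate 1 was -0.24 for Vtn, and the median of the list was -0.20. Of 11 meningeal fibroblast genes 10 were detected, led by Col3a1 (27.0 ± 7.80), Col1a2 (26.7 ± 4.39) and Col1a1 (11.8 ± 2.37), with Foxd1 lowest (0.855 ± 0.587), and they summed to 117.0 and 87.3 TPM. The part of these cells in the levels of Ebf1 to Ebf4, Zfp423 and Zfp521 was not tested.

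B cell genes, apart from Pax5, were at or near 0, while brown fat genes were divided. Of 12 B cell genes only Pax5, which is also a gene of the midbrain and hindbrain boundary, was detected (4.37 and 2.01 TPM). Among all nuclear coding genes 54.6% were detected. Cd79b, which encodes a part of the B cell receptor, had 0.07 and 0.12 TPM and Rag1 0.10 and 0.07. Ms4a1 had 0 counts in replicate 1 and 1 in replicate 2. Blk, Igll1 and Vpreb1, named after their values were seen, had 0 counts in both libraries, which for Blk allows up to 0.0169 and 0.00833 TPM at 3 counts. Of 10 brown fat genes 4 were detected, Ppargc1a (3.65 ± 1.04), Cidea (3.57 ± 0.219), Cebpa (2.15 ± 0.827) and Prdm16 (1.31 ± 0.424). The defining brown fat gene Ucp1 had 0.08 and 0.06 TPM, and Fabp4, Adipoq and Elovl3 had 0 counts in both libraries.

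**Figure D5:**
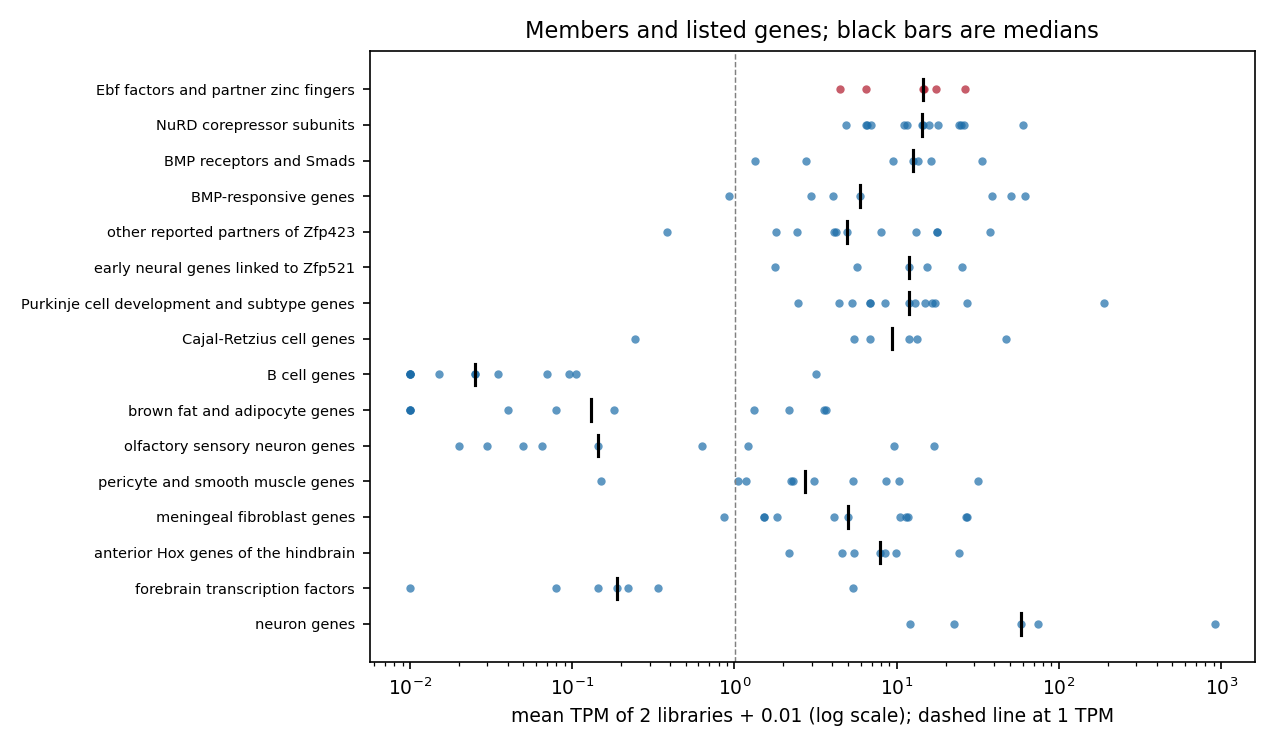
Mean TPM of 2 libraries plus 0.01 (x axis, log scale) for the 6 genes (red) and for the genes of 15 lists (blue), with black bars for medians and a dashed line at 1 TPM. The NuRD, BMP receptor and Purkinje lists have medians of 14.4, 12.5 and 11.9 TPM, near that of the 6 genes, while most B cell, brown fat, olfactory and forebrain genes lie left of the line.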

How the data were processed

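Total RNA of newborn mouse hindbrain was measured in 2 libraries, numbered as in the labels. Per the deposited file notes, reads had been aligned to transcripts of GENCODE release M4 on build mm10. The names of aligner and quantifier are not given in the sources used. The authors deposited expected counts, which are estimates of fragments with shared reads divided among transcripts. The authors' TPM values are these counts per effective length, scaled to one sum that includes spike-ins. A deposited percent column gives the share of a transcript in the TPM of its gene. Whether counting used strand is not stated.

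Symbols, transcript structures and coordinates came from GENCODE release M21 on mm10 (42462 of 43346 genes matched, 98.0%), promoter windows from RefSeq. Rows that name no mouse gene (0.410% and 0.280% of counts without spike-ins, and 0.870% and 0.813% in spike-ins) stayed out of ratios. Mouse genes held 53617723 and 76299141 counts. Expected counts were rounded to whole numbers for ratios, scaled by TMM with edgeR 4.0.16 under R 4.3.3, and given a prior count of 2, over genes averaging 10 counts or more. Only the count ratios were tested on simulated data, which held set changes and counting error but no other variation between libraries. Coding sequences were aligned with Biopython 1.88. Detection meant at least 1 TPM in both libraries. Values are mean ± SD (n = 2), and floors at 3 counts and intervals cover counting error only.

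The 6 genes, 15 gene lists (132 genes) and all rules were chosen with earlier results of these data known. Named were the 6 genes, transcripts with at least 5% in either library, and the highest 3 and lowest 1 of each list, beside others described with their list. Alternatives were posterior mean values, coding-gene TPM, other pseudocounts, lengths, prior counts and filters, DESeq2 1.42.0 size factors, total and spike-in scaling, other detection limits, and each library alone.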

Additional observations from a re-analysis of the deposited data

How the results depend on the processing

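Of the main results, 108 alternative values moved by less than the spread or stayed on the same side of the rule, 13 moved further, 1 crossed the rule and 0 values called apart or past the rule changed sign. For single transcripts, lists and pairs that are not neighbours in the order, 181 stayed and 10 moved. These counts of values that stayed include those with 1 library left out. With 2 libraries, leaving 1 out always moves a mean by less than its SD. For levels, pair ratios and shares that outcome was therefore fixed in advance and is no sign of stability. Rescaled to nuclear coding genes, the mean levels were higher, as the smaller sum requires, and in the same order. They were 112.0 TPM for Ebf3, 73.8 for Zfp423, 62.6 for Ebf1, 62.3 for Zfp521, 27.7 for Ebf2 and 18.9 for Ebf4. With posterior mean TPM, Ebf1 over Zfp521 was 0.0709 on the log2 scale and the pair was apart by more than 2 SD, and the cause was not tested. With scaling by spike-in totals the log2 ratios of replicate 2 to replicate 1 were 0.10 for Ebf1, 0.10 for Ebf2, -0.0092 for Ebf3, -0.0379 for Zfp423 and 0.24 for Zfp521, since that scaling shifts all genes by one amount. Without a filter on low counts 4250 genes were past 2-fold, against 2633 with it, since more genes entered. By expected counts Ebf2-203 held 80.8% of its gene, since longer transcripts give more fragments. No paired analysis was possible because the series has 1 group and no replicate number is shared between groups. With 1 library at a time each value is that library's own, as given above, and Ebf1 over Zfp521, which was not apart, ran from -0.003 to 0.02. It was -0.0112 with expected counts per full length, so the order of these genes is not settled. Depth gave the 6 genes from 1014 to 15252 counts in a library, and transcripts with few counts, such as Zfp423-204 with 11.4, are the least certain.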

Other observations

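Of 9 olfactory sensory neuron genes 2 were detected, beside 54.6% of all nuclear coding genes. In these neurons Ebf1 is also known as Olf1. The detected genes were Gnal (17.0 ± 5.34 TPM, n = 2) and Adcy3 (9.57 ± 2.60), both of which other neurons also express. Gng13 had 1 and 19 expected counts, with 0.33 and 2.09 TPM. Omp, a defining gene of mature olfactory neurons, had 0.02 and 0.09 TPM (3 and 29 counts), and Stoml3, the lowest, had 3 and 0 counts. Of the 6 listed genes that averaged 10 counts or more, 4 were past 2-fold higher in replicate 2, Gng13, Ano2, Rtp1 and Omp. The highest of their counts was 237, for Ano2. Among all genes averaging 10 counts or more, 14.9% were past 2-fold in either direction.

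The highest of the 394 coding genes named Zfp with a number were Zfp207 (53.60 and 43.57 TPM) and Zfp428 (42.49 and 26.44 TPM). Zfp532 had 22.38 and 42.29 TPM, higher in replicate 2, whereas a typical coding gene was lower there.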
